A study of Mus musculus with 8 samples.

Results

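Cathepsins are the proteases of the lysosome, and Ifi30 encodes the thiol reductase that works beside them. The genes described here are Ctsa, Ctsb, Ctsc, Ctsd, Ctsh, Ctsk, Ctsl, Ctss, Ctsz and Ifi30, found by their gene names, 10 of the 35275 genes measured. Most cathepsins are made as inactive precursors, carry a mannose 6-phosphate tag to the endosome, and become active at acid pH. Cystatins block the cysteine proteases among them that escape. In macrophages they degrade cargo delivered by phagocytosis and autophagy, and together with Ifi30, which reduces disulfide bonds, they cut antigens and the invariant chain for presentation on MHC class II. RNA was sequenced from tumor-associated macrophages of MC38 tumors, a mouse colon adenocarcinoma line of which 100000 cells were placed under the skin of female C57BL/6J mice aged 6 to 8 weeks. At day 21 the CD11b+ F4/80+ Ly6G- Ly6C- cells were sorted. All hosts carried floxed alleles of Atg5, a gene needed to build autophagosomes. The 4 Atg5 WT mice (Atg5flox/flox), called WT below, had no Cre, and the 4 mice labelled Atg5 KO (Atg5flox/flox+LysMcre) carried Cre in the lysozyme gene Lyz2, which acts in macrophages, neutrophils and other myeloid cells of the host but not in the tumor cells. Each library is named by its mouse number, 1 to 4 in each group, and a level is an FPKM (fragments scaled to the length of the gene and to the total of the library). The comparison asked whether the RNA of these genes differed in macrophages whose host was meant to lack Atg5.

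Between 14799546 and 25555195 fragments were assigned to genes in each library. Atg5 RNA itself was 4.52 ± 1.49 FPKM (SD, n = 4) for WT and 14.0 ± 1.51 (SD, n = 4) in the other group, so it went against the label, and whole-gene values do not check a deletion of some exons. Lyz2, the locus that carries the Cre, was at 4436 to 6268 FPKM for WT and 2808 to 3467 with the KO label (adjusted p of 0.985 in limma). Its groups did not overlap. Because Atg5 went against the label, the second group is named only by its label, KO, and every direction below rests on that label. Macrophage genes were abundant in all libraries, with Csf1r, the receptor for the growth factor CSF1, at 347.1 to 392.5 FPKM and Emr1, which encodes F4/80, at 94.6 to 155.9. Mouse 1 of either group lay away from the other 6 libraries, at -34.7 and -37.8 on the first principal component against -3.71 to 21.3. Their 15 fibroblast markers summed to 261 and 476 FPKM, against 38.4 to 86.9 elsewhere. Results that rest on these libraries are given with and without them.

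Among the 10 genes, Ctss had the highest RNA level, and Ctsk the lowest and the most variable. Cathepsin S, a cysteine protease of antigen-presenting cells that trims the invariant chain, had an FPKM of 2196 ± 474 (SD, n = 4) for WT and 1995 ± 205 (SD, n = 4) with the KO label. By mean level it ranked 17 among the 11019 tested genes for WT. The 9 cathepsins together had a summed level of 5780 ± 540 FPKM (SD, n = 4) for WT and 5420 ± 314 (SD, n = 4) with the KO label, and Ctss made up 37.7% ± 4.55 and 36.8% ± 3.66 (SD, n = 4) of these sums. Ctss stood above every other gene of the set in all 8 libraries.

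In WT, Ifi30, Ctsz, Ctsc and Ctsd followed at mean levels of 874.5, 828.4, 716.3 and 702.1 FPKM, and each overlapped its neighbour in this order. Ctsb came next at 529.2 FPKM and Ctsl at 362.8, each separate from the gene above it. Ctsa and Ctsh, at 210.7 and 199.3 FPKM, overlapped each other, and Ctsk, at 35.8 FPKM, lay below all of them. In the KO-labelled libraries Ctsc moved to the second place with a mean of 780.8 FPKM, but its values overlapped those of Ifi30, the next gene. Ctsl and Ctsb overlapped there, and Ctsk was again last. Across all 8 libraries the coefficient of variation lay between 6.52% (Ctsh) and 16.9% (Ctss), except for Ctsk, which reached 72.8%. At least 7633 fragments lay behind each value outside Ctsk, whose values rested on 518 to 3163 fragments.

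**Figure D1:**
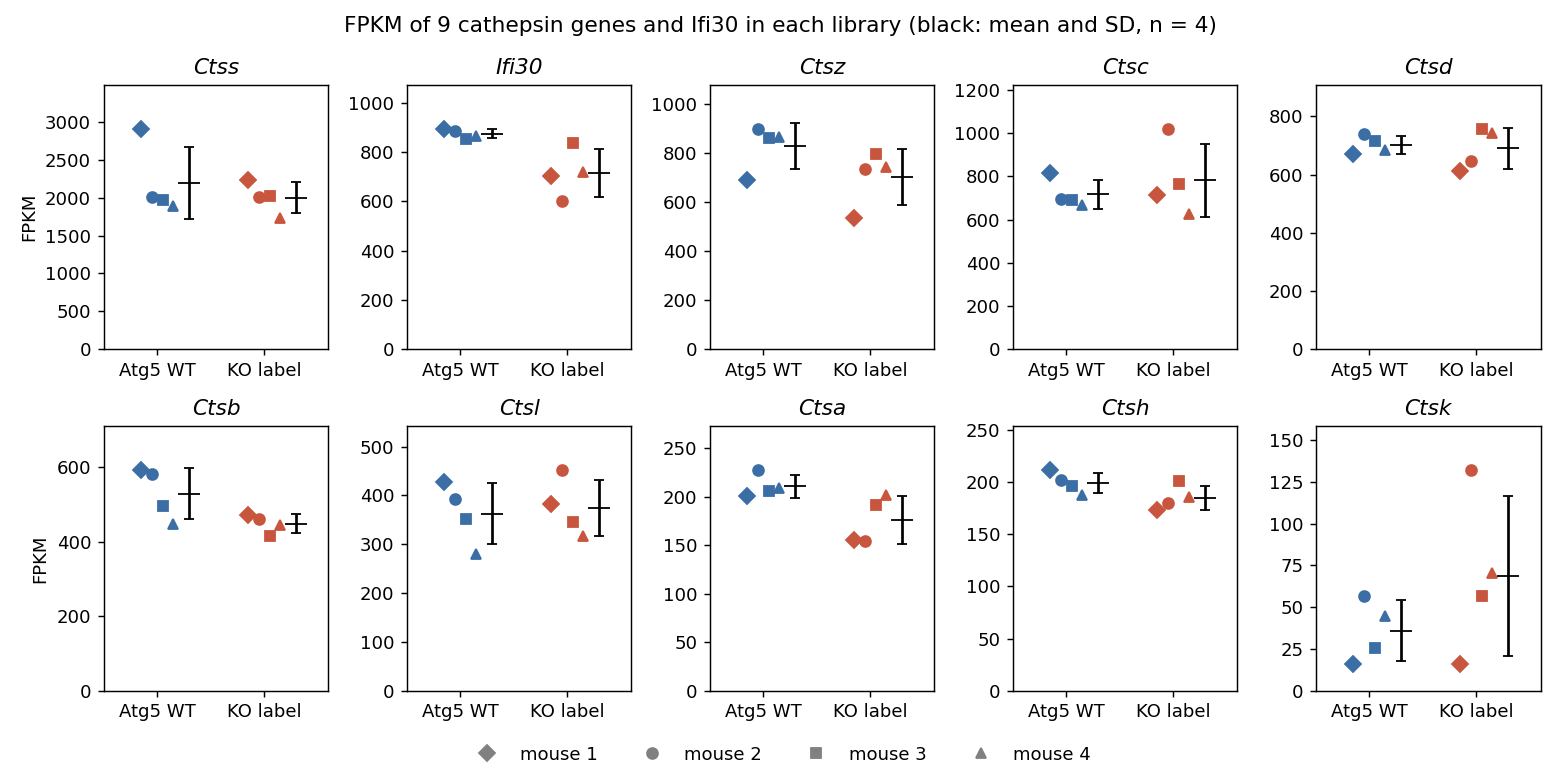
FPKM of each gene in each library on a linear axis from 0, by labelled group; symbols mark the mouse number, and the black marks give the mean and SD of 4 libraries. Ifi30 is the gene whose groups do not overlap, and Ctsk spreads from 15.8 to 132.0 FPKM.

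Ctsk and Ctss are neighbours on chromosome 3, with no other listed gene in the 17423 bases between them. Ctsk lies at 95499286 to 95509362 and Ctss at 95526786 to 95556403, both on the plus strand of mm10. Their mean levels differed 61.3-fold for WT and 29.0-fold with the KO label. No stretch of 50 bases in their annotated transcripts (GENCODE M21) occurred in the transcripts of any other gene. The 250 bases before each annotated start (RefSeq, GRCm38.p6, plus strand) are shown because these adjacent genes differ so much in level. Capitals mark a core of interferon-response elements, GAAA followed by any 2 bases and another GAAA, searched on both strands.
Ctsk, chr3:95498960-95499209: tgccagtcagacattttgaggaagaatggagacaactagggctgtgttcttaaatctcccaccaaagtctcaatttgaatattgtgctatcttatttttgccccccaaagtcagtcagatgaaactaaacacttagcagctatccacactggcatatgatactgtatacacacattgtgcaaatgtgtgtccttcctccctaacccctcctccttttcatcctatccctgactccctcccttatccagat
Ctss, chr3:95526536-95526785: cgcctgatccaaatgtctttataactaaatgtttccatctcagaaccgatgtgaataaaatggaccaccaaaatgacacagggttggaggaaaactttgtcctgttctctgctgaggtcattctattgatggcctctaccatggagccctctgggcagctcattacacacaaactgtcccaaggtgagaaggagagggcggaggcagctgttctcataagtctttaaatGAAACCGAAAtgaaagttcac
Of all 32851 promoter windows in the same RefSeq table, each 300 bases long, 3.44% held this motif. The Ctss window held it 21 bases before the start, and those letters are not in the Ctsk window. Whether the motif bears on the difference in level was not tested. Of other motifs searched on both strands, GAGGAAGT, a site of the myeloid factor PU.1, was in the windows of Ctsc and Ctss (3.69% of genes), and TTCNNNGAA, a STAT site, in that of Ctsc (9.55% of genes). The Ctss gene also overlaps the pseudogene Hmgb1-ps5, listed at a mean of 8.72 FPKM on the same strand.

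No gene of the set passed an adjusted p of 0.05 between the groups in limma, a test fitted across all genes, and neither did any of the 11019 genes tested (0% called). Over all 11019 tested genes, 4569 had lower and 6450 had higher estimates with the KO label. Of the 10 genes, 7 had lower and 3 had higher estimates. Ifi30 and Ctsa were lower at an unadjusted p under 0.05 and no gene was higher, while over all tested genes 2.02% were at that level, 0.826% lower and 1.2% higher (91 and 132 genes; 69 and 188 when values were rescaled to TPM, and 141 and 107 with median-of-ratios scaling). Ctsa had an unadjusted p above 0.05 with TPM, median-of-ratios scaling and voom, without both mouse 1 libraries, and without WT mouse 2, 3 or 4 or KO-labelled mouse 1 or 2. Ifi30 had one above 0.05 with no filter on low values, without both mouse 1 libraries, and without WT mouse 2 or 4 or KO-labelled mouse 2. Limma's voom on fragments recovered from the FPKM called 0 genes and had 217 with an unadjusted p under 0.05. The median difference of the set was -0.11 on the log2(FPKM + 1) scale, beside 0.03 over all tested genes. Each estimate is given below with its 95% interval, since a gene that misses the threshold is not shown to be equal. In bulk RNA, fewer cells of a type and less RNA per cell cannot be told apart.

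Ifi30, on chromosome 8 (70762774 to 70766663, minus strand, mm10), was the one gene of the set whose groups did not overlap, as was so with lower KO-labelled values for 0.59% of all tested genes. It had 894.0, 885.2, 852.5 and 866.3 FPKM for WT mice 1 to 4, and 705.2, 602.0, 839.0 and 720.9 FPKM with the KO label. The WT libraries were close together, and KO-labelled mouse 3 lay just below the lowest of them. The mean level was 874.5 ± 18.7 (SD, n = 4) against 716.8 ± 97.1 (SD, n = 4), 18.0% lower with the KO label by the ratio of means (a change of -18.0%). The log2 difference was -0.30 ± 0.11 (SE), with a 95% interval of -0.55 to -0.04 and an adjusted p of 0.999 in limma. The exact two-sided permutation p was 0.0286, the smallest that 4 against 4 allows. Without both mouse 1 libraries the difference was -0.28 ± 0.13 (SE).

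Ctsa, Ctsb and Ctsz were lower in all 4 same-numbered pairs, as Ifi30 was, while their groups overlapped. A pair joins separate mice that share a number, and the labels do not state a pairing. What pairing the values showed came mostly from mouse 1. Over all tested genes 6.52% were lower and 13.2% higher in all 4 pairs, and no gene of the set was higher in all 4. Ctsa (chromosome 2, 164832873 to 164841032, plus strand), a carboxypeptidase that also protects lysosomal neuraminidase and beta-galactosidase, had 200.7, 227.5, 206.2 and 208.6 FPKM for WT mice 1 to 4 and 155.1, 154.5, 191.8 and 202.4 with the KO label. KO-labelled mice 1 and 2 were well below the WT range, and mouse 4 lay inside it. Its log2 difference was -0.27 ± 0.12 (SE), with a 95% interval of -0.53 to -0.0030, an adjusted p of 0.999 in limma and an exact permutation p of 0.0571.

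Ctsz (chromosome 2, 174427493 to 174439039, minus strand), a carboxypeptidase also called cathepsin X, had 689.3, 898.3, 861.1 and 864.8 FPKM for WT mice 1 to 4 and 534.4, 736.0, 797.1 and 744.1 with the KO label. Within each group mouse 1 held the lowest value, and in each pair the KO-labelled level was 0.775 to 0.926 times the WT level. Its log2 difference was -0.25 ± 0.15 (SE; 95% interval -0.58 to 0.09) and its adjusted p was 0.999 in limma. Without KO-labelled mouse 1 the difference was -0.12 ± 0.12 (SE), and without both mouse 1 libraries it was -0.20 ± 0.085 (SE).

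Ctsb (chromosome 14, 63122462 to 63145919, plus strand), an endopeptidase that also removes dipeptides from the carboxyl end, had 592.0, 581.1, 496.3 and 447.4 FPKM for WT mice 1 to 4 and 470.9, 462.3, 414.3 and 446.1 with the KO label. The KO-labelled values were close together, and the mouse 4 libraries of both groups had nearly equal levels. The log2 difference was -0.23 ± 0.12 (SE; 95% interval -0.49 to 0.03; adjusted p of 0.999 in limma). Some counted reads of Ctsa and Ctsb may come from genes on the opposite strand whose ends overlap theirs, Pltp and Neurl2 for Ctsa and Fdft1 for Ctsb, since no source used here states whether counting used strand. Pltp, at a mean of 55.5 FPKM, was the most abundant of these.

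With the mouse number as a block, 5 of the 10 genes had an unadjusted p under 0.05 in place of 2, namely Ctsa, Ctsb, Ctsz and Ifi30 with lower and Ctsk with higher values. Over all tested genes 3.62% were lower and 5.19% higher at that level with the block. No gene of the set passed after adjustment in that fit, the smallest adjusted p being 0.473 for Ctsk in limma, and 0.161 in voom with the block, also for Ctsk. Limma with the block called 1 gene of 11019 (0.00908%), Atg5. Voom with the block called 8, none of the set, with Atg5 and Lyz2 among them (adjusted p of 0.0026 and 0.041).

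**Figure D2:**
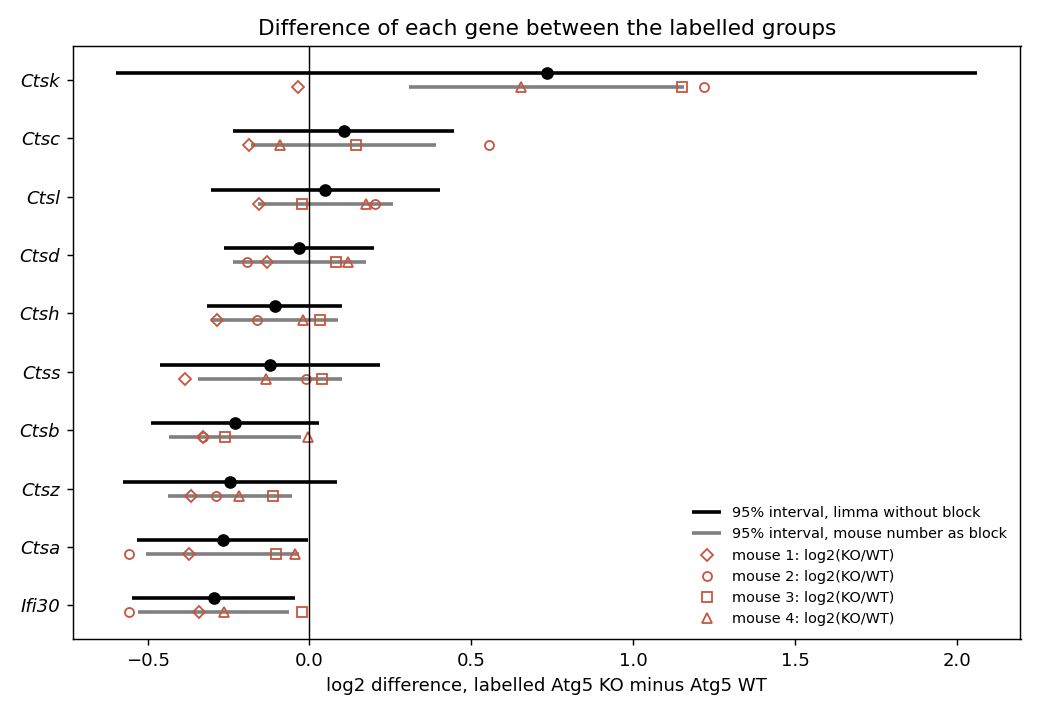
Log2 difference of each gene, libraries labelled Atg5 KO minus Atg5 WT: black points and lines give the limma estimate on log2(FPKM + 1) with its 95% interval, grey lines the interval with the mouse number as a block, and open symbols the log2 ratio within each same-numbered pair. Ifi30, Ctsa, Ctsz and Ctsb lie below 0 in all 4 pairs, and the black interval of Ctsk runs from -0.60 to 2.06.

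Ctss, Ctsh, Ctsd, Ctsl and Ctsc had log2 differences between -0.12 and 0.11. Their intervals covered 0, as did those of Ctsb, Ctsz and Ctsk. Ctss had 2903, 2014, 1972 and 1894 FPKM for WT mice 1 to 4 and 2226, 2001, 2025 and 1727 with the KO label. The mouse 1 library was the highest in each group. The log2 difference of -0.12 ± 0.15 (SE; 95% interval -0.46 to 0.22) became 0.02 without WT mouse 1, and the adjusted p of the full comparison was 0.999 in limma. Ctsh (chromosome 9, 90054152 to 90076089, plus strand), an aminopeptidase, had 188.0 to 211.4 FPKM for WT and 173.6 to 200.7 with the KO label, with a difference of -0.11 (95% interval -0.32 to 0.10).

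Ctsd (chromosome 7, 142371148 to 142388038, minus strand), the aspartic protease of the lysosome, had 670.7 to 738.7 FPKM for WT and 612.1 to 756.2 with the KO label, with a log2 difference of -0.03 (95% interval -0.26 to 0.20). Its sign turned with TPM scaling (0.0063). Ctsl (chromosome 13, 64363214 to 64370306, minus strand), an endopeptidase with broad substrates, had 280.5 to 426.5 FPKM for WT and 316.6 to 451.5 with the KO label, with a log2 difference of 0.05 (95% interval -0.30 to 0.40). In the GENCODE M21 annotation 26.3% of the 50-base stretches of Ctsl transcripts also occurred in transcripts of other genes on either strand. For Ctsd the share was 32.4%, while Ctsk, Ctss and Ctsz shared none. Whether this affects the levels depends on the annotation used for counting, which no source used here states. The listed gene that overlaps Ctsd is Ifitm10, at a mean of 0.14 FPKM.

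Ctsc (chromosome 7, 88278085 to 88310888, plus strand), the dipeptidyl peptidase that activates the serine proteases of granules, was highest in KO-labelled mouse 2. It had 814.5, 693.5, 691.8 and 665.4 FPKM for WT mice 1 to 4 and 715.4, 1018, 765.0 and 624.9 with the KO label. The groups overlapped, with 2 pairs higher and 2 lower. The log2 difference was 0.11 ± 0.15 (SE; 95% interval -0.24 to 0.45), and without KO-labelled mouse 2 it was -0.03.

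Without both mouse 1 libraries the log2 difference was -0.035 for Ctss, -0.049 for Ctsh, 0.0026 for Ctsd, 0.12 for Ctsl and 0.20 for Ctsc. In the same comparison it was -0.23 for Ctsa and -0.20 for Ctsb.

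Ctsk varied most of the set, and its levels overlapped between the groups. Cathepsin K, the collagen-degrading protease known from osteoclasts, had 16.2, 56.7, 25.5 and 44.8 FPKM for WT mice 1 to 4 and 15.8, 132.0, 56.5 and 70.5 with the KO label. The mouse 1 libraries of both groups were the lowest and nearly equal, and KO-labelled mouse 2 was the highest. The highest value was 8.35 times the lowest, a spread reached by 2.06% of all tested genes, while no other gene of the set exceeded 1.68 times. Within same-numbered pairs the KO-labelled level was 0.975, 2.33, 2.22 and 1.57 times the WT level for mouse numbers 1 to 4. The group means were 35.8 ± 18.3 (SD, n = 4) and 68.7 ± 48.2 (SD, n = 4), and the log2 difference was 0.73 ± 0.59 (SE; 95% interval -0.60 to 2.06) with an adjusted p of 0.999 in limma and an exact permutation p of 0.286. Single libraries moved it: the difference was 0.31 ± 0.57 (SE) without KO-labelled mouse 2, 0.42 ± 0.60 without WT mouse 1, and 1.30 ± 0.43 without KO-labelled mouse 1. Without both mouse 1 libraries it was 0.99 ± 0.37 (SE), with an adjusted p of 0.776 in limma.

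Markers of the cell types known to make cathepsin K were set beside it. The most abundant osteoclast markers were Acp5, an acid phosphatase, and Mmp9, a gelatinase that neutrophils also make. Mmp9 had 6.71, 43.4, 16.7 and 37.9 FPKM for WT mice 1 to 4 and 8.59, 81.9, 37.3 and 47.2 with the KO label, so its 3 highest and its 3 lowest libraries were those of Ctsk. Acp5 ranged from 45.3 FPKM in KO-labelled mouse 1 to 122.1 in KO-labelled mouse 2, again the lowest and the highest libraries of Ctsk. Other osteoclast markers had other orders. Ocstamp and Dcstamp, both needed for cell fusion, were highest in WT mouse 4 (7.50 FPKM) and KO-labelled mouse 2 (46.6 FPKM), and Ocstamp had 3.64 FPKM in the latter. Nfatc1, the main transcription factor of osteoclasts, and the integrin gene Itgb3 were highest in WT mouse 4, at 34.6 and 3.00 FPKM. Tnfrsf11a, which encodes the receptor RANK, was highest in KO-labelled mouse 3 at 17.5 FPKM. Of the 7 tested osteoclast markers, 4 had positive and 3 negative estimates, with a median of 0.0099.

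The 9 osteoclast markers, with Acp5 and Mmp9 the most abundant on average, summed to 122.7 to 219.7 FPKM for WT and 118.2 to 295.8 with the KO label. Calcr, the calcitonin receptor of osteoclasts, was at most 0.082 FPKM. The 14 neutrophil markers, which also include Mmp9, summed to 44.1 to 101.1 and 75.0 to 156.4 FPKM, of which Mmp9 was 81.9 in KO-labelled mouse 2. Ly6g was at 0 in every library but KO-labelled mouse 3 (0.13). Of the 6 tested neutrophil markers, 5 had positive estimates and 1 a negative estimate, with a median of 0.71. Fibroblasts can also make cathepsin K. Col3a1, a fibrillar collagen, was highest in the mouse 1 libraries (74.1 FPKM for WT and 149.1 with the KO label), where Ctsk was lowest. For mice 2, 3 and 4 it had 6.76, 6.12 and 9.04 FPKM in WT and 11.1, 13.2 and 15.2 with the KO label. There it was higher with the KO label in each pair, as Ctsk was. Not all fibroblast markers were. For mouse number 2, Mmp2 had 7.15 FPKM in WT and 4.48 with the KO label, and Col6a1 had 3.25 and 2.46. Both were higher with the KO label for mouse numbers 3 and 4. Over all 11019 tested genes 6450 estimates were positive, and all 9 tested fibroblast markers had positive estimates, with a median of 0.58. None passed in limma, while Col3a1 and Col1a2 were among the 8 genes called by voom with the block. The others were Atg5, Lyz2, the monocyte marker Vcan, and Slpi, Fbn1 and Fstl1, which are on none of the marker lists. The part of these cells in the spread of Ctsk was not tested.

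**Figure D3:**
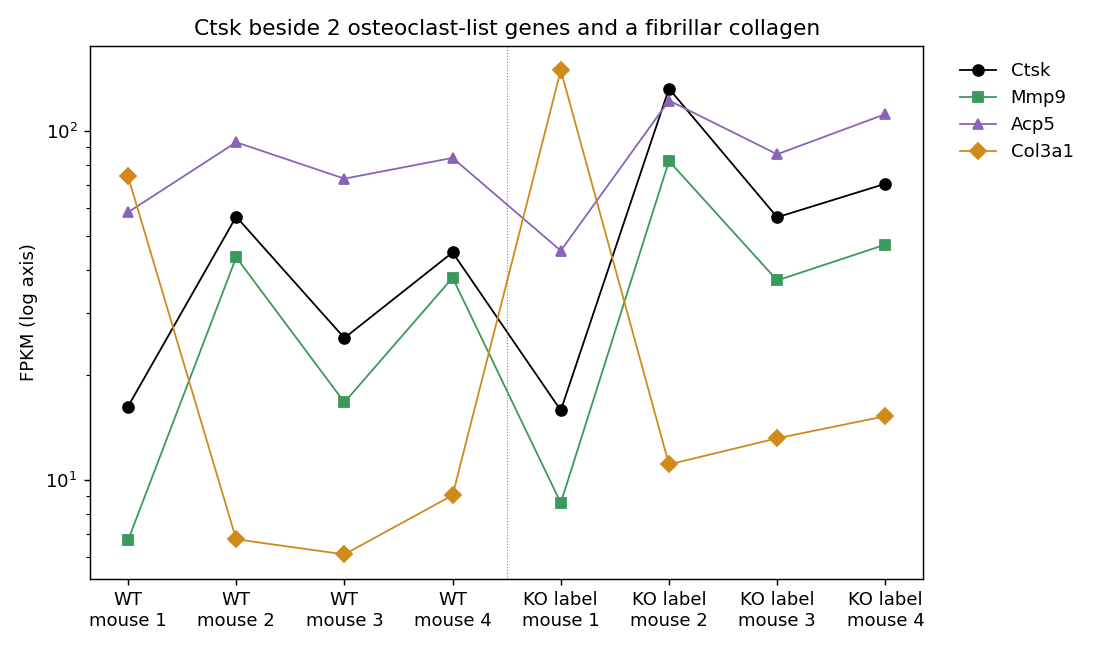
FPKM on a log axis in each of the 8 libraries for Ctsk, Mmp9, Acp5 and Col3a1; lines only join the points of a gene. Ctsk and Mmp9 are low in both mouse 1 libraries and highest in KO-labelled mouse 2 (132.0 and 81.9 FPKM), while Col3a1 is highest in the mouse 1 libraries.

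Many lysosomal genes carry in their promoters the element CACGTG, the core of the site bound by TFEB and its relatives. Windows from 250 bases before to 50 after the annotated start were found for 8 of the 10 genes in the RefSeq table (GRCm38.p6). Of these, 4 held CACGTG on either strand, which reads the same on both, as did 8.09% of all 27025 genes with a window. Ctsa, Ctsd and Ifi30 held the longer palindrome TCACGTGA, which contains it and which 1.12% of genes held. None held that palindrome with a G before it and a C after it, as 0.37% of genes did. The stretches around CACGTG are shown 5′ to 3′ on the strand of each gene, with the element in capitals. For Ctsd only the site 98 bases before the start is shown, and a second CACGTG lies 245 bases before it.
Ctsa, chr2:164833733-164833792, plus strand: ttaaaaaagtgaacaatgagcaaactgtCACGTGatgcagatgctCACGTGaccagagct
Ctsd, chr7:142387893-142387952, minus strand: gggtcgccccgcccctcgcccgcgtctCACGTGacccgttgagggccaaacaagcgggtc
Ifi30, chr8:70766827-70766886, minus strand: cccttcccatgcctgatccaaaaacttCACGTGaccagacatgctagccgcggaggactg
Ctsl, chr13:64370724-64370770, minus strand: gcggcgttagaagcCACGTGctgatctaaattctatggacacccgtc
The Ctsa pair lies at a second annotated start downstream of the first, whose window held no CACGTG. The genes with the element had log2 differences from -0.30 (Ifi30) to 0.05 (Ctsl), a range that overlaps that of the genes whose windows did not hold it. With the element, Ctsa and Ifi30 were lower in every same-numbered pair, and Ctsd and Ctsl were not. Ctsz, also lower in every pair, had a window without CACGTG, and Ctsb, lower in every pair too, had no window. A link between the element and these differences was not tested.

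Among the genes around the cathepsins, none of the 6 lists examined held a gene that passed after adjustment in limma. Over all 11019 tested genes, 6450 had positive and 4569 had negative estimates. Of other cathepsins and lysosomal proteases, 12 of 14 were tested, 2 with positive and 10 with negative estimates and a median of -0.09. Lgmn, the asparaginyl endopeptidase legumain, which processes several cathepsins, had a level of 645.3 ± 87.9 FPKM for WT and 548.2 ± 56.5 with the KO label (SD, n = 4; adjusted p of 0.999 in limma). Dpp7, a dipeptidyl peptidase, had 15.3 ± 1.17 and 12.7 ± 1.92, and Ctsf, a low cathepsin, had 2.00 ± 0.35 and 1.48 ± 0.42. Both ran in the direction of the median and had groups that overlapped.

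Of the 16 cystatins and other inhibitors, 8 were tested, 7 of them with negative estimates and a median of -0.18. Cst7, cystatin F, an inhibitor known to act on cathepsin C, had 4.49 ± 0.40 FPKM for WT and 2.83 ± 1.11 with the KO label (SD, n = 4), with a log2 difference of -0.57 ± 0.21 (SE). Cst3, the secreted cystatin C, had 1109 ± 91.5 and 946.0 ± 161.5. Serpina3g, a serpin that inhibits cysteine cathepsins, had 44.7 ± 9.10 and 33.3 ± 8.04. All 3 had adjusted p values of 0.999 in limma. Cstb, the intracellular cystatin B, had a log2 difference of 0.03.

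The sorting list had a positive median and the regulator list a negative median. The 19 sorting genes had a median difference of 0.0078, with 11 positive and 8 negative. The 14 tested regulators had a median of -0.05, with 5 positive and 9 negative, beside 0.03 over all tested genes. Gnptg, a subunit of the enzyme that adds the mannose 6-phosphate tag, had 8.78 ± 0.52 FPKM for WT and 7.37 ± 0.73 with the KO label (SD, n = 4), and its groups did not overlap. Sort1, the sorting receptor sortilin, had 2.19 ± 0.38 and 2.94 ± 0.58, and Igf2r, a mannose 6-phosphate receptor, had 11.3 ± 0.94 and 13.5 ± 2.59. The adjusted p was 0.999 in limma for each of these.

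Among the 14 tested regulators, Tfec, a relative of TFEB found in macrophages, had 15.0 to 16.1 FPKM for WT and 18.0 to 22.0 with the KO label. Its groups did not overlap, as was so with higher KO-labelled values for 1.15% of all tested genes, and its log2 difference was 0.30 ± 0.10 (SE; adjusted p of 0.999 in limma). Tfeb ranged from 9.13 to 31.2 FPKM for WT and 9.09 to 28.7 with the KO label, lowest in the mouse 1 library of each group. Flcn, which encodes folliculin, had 35.2 ± 4.95 and 28.5 ± 4.18, and Mtor had 7.28 ± 0.61 and 7.90 ± 0.53 (SD, n = 4). The 19 genes of lysosomal membrane and acidification had a median of -0.02, and Cd63, Cd68 and Npc2 had the smallest p values, with log2 differences of -0.27, -0.23 and -0.13.

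**Figure D4:**
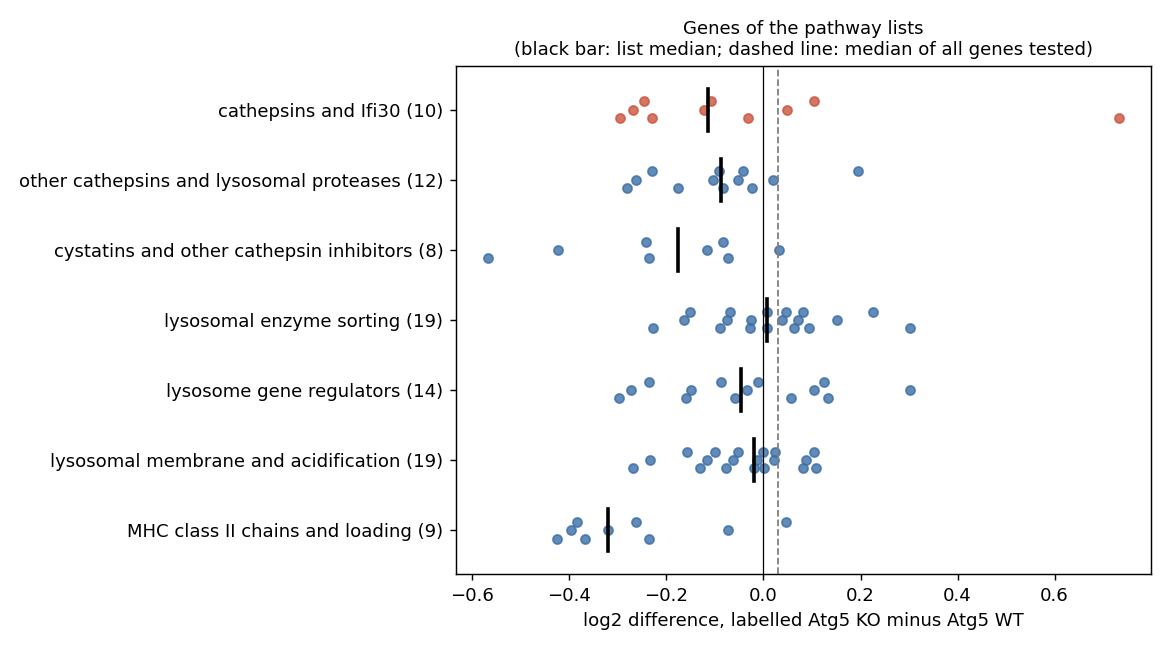
Log2 difference of each tested gene in the 10-gene set and in 6 surrounding lists, with the number tested in brackets, the list median as a black bar and the median of all tested genes, 0.03, as a dashed line. The MHC class II list has the lowest median, -0.32, and the point farthest to the right is Ctsk at 0.73.

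The MHC class II genes, whose products Ctss and Ifi30 help to load, had a median difference of -0.32 over 9 tested genes, with 8 negative and 1 positive. Cd74, the invariant chain that cathepsin S trims, had 7336 to 8156 FPKM for WT and 5474 to 6989 with the KO label. The groups did not overlap, and the lowest library, KO-labelled mouse 2, was also the lowest for Ifi30. H2-Eb1, a class II chain, and H2-DMa, a loading chaperone, had log2 differences of -0.40 ± 0.12 and -0.38 ± 0.16 (SE). All had adjusted p values of 0.999 in limma. These lists were examined with results of the same libraries known and are no independent support for the direction of Ifi30.

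Markers of other antigen-presenting cells were set beside Ifi30 and the MHC class II genes. The 12 conventional dendritic cell markers summed to 163.5 to 252.2 FPKM for WT and 144.1 to 223.7 with the KO label, with most of the sum from Itgax, which macrophages also express. Flt3, a defining marker of dendritic cells, was at most 0.89 FPKM. Batf3, a transcription factor of conventional dendritic cells, had 15.0 ± 2.78 FPKM for WT and 9.81 ± 1.56 with the KO label (SD, n = 4), a log2 difference of -0.56 ± 0.16 (SE). Of the 8 tested dendritic cell markers, 6 had negative and 2 positive estimates. Their median was -0.05, and Batf3 had the lowest estimate of the list. Macrophage markers, 11 of them, summed to 9841 to 11840 and 7620 to 11178 FPKM. Of these, 9 had negative estimates, among them Apoe at -0.33 and the complement genes C1qa, C1qb and C1qc at -0.43, -0.35 and -0.48. Itgam, which encodes CD11b, had 0.34. The 16 lymphocyte markers summed to 7.39 to 16.0 and 6.30 to 9.27 FPKM, among them Cd2, a lymphocyte adhesion receptor, at 3.04 ± 0.69 and 1.51 ± 0.28 (SD, n = 4) in groups that did not overlap, and the 10 epithelial markers, of which Krt20 was at 0 throughout, to 45.9 to 77.5 and 37.3 to 72.1, mostly from Cdh1. The 11 monocyte markers summed to 169.6 to 288.5 and 212.7 to 384.2. Positive estimates were held by 6450 of all 11019 tested genes. Of the 10 tested monocyte markers, 9 had positive estimates and 1 a negative estimate, with a median of 0.35. Vcan of this list was called by voom with the block (adjusted p of 0.025). None of these markers passed in limma (adjusted p of 0.999 for Batf3, C1qa, C1qb and Cd2). The part of these cells in the difference of Ifi30 was not tested.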

How the data were processed

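RNA was sequenced from sorted macrophages of 8 tumors. The authors deposited 1 table of FPKM values with gene lengths. CASAVA, STAR and the mm10 build are named in the submitters' processing notes, and no source used here states the counting tool, its strand setting or its annotation. FPKM times gene length gave whole fragments for 100% of values (within 0.01 fragments). Groups and mouse numbers came from the labels, which name separate mice, and no libraries agreed within sampling noise.

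Log2(FPKM + 1) values were compared with limma 3.58.1 (R 4.3.3, with a trend, in two-sided tests). Genes averaging at least 1 FPKM over the 8 libraries entered, 11019 in all, every one of the 10 genes of the set among them, with Benjamini-Hochberg adjustment over all tested genes and a threshold of 0.05. This scale understates changes of low genes. The difference of mean FPKM was also tested by exact permutation for each of the 10 genes. Same-numbered libraries deviated together from their group means (correlations over genes of 0.841, 0.208, 0.458 and 0.471 for mice 1 to 4), so values blocked by mouse number stand beside the unblocked ones. Without mouse 1 the correlations were 0.297, -0.134 and 0.205, so the pairing comes mostly from mouse 1. The genes of the set and the lists were chosen with earlier results of these data known. By rule, the text names the 10 genes, Atg5 and Lyz2, the 3 genes with the smallest p of each surrounding list, and, for marker lists that bear on a result, abundant markers and markers at 0 throughout. Csf1r, Emr1, Tfeb, Cstb, Calcr, Ly6g, Flt3, Batf3, C1qb, Itgam, Nfatc1, Itgb3, Ocstamp, Dcstamp, Tnfrsf11a, the genes overlapping others and those of the closing observations were chosen after their values were seen. So were Mmp2, Col6a1, Col1a2, Fbn1, Fstl1, Slpi, Vcan and C1qc.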

Additional observations from a re-analysis of the deposited data

Results flagged for a closer look

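Among the 24 groups of 4 values examined for the 10 genes, Atg5 and Lyz2, 2 held a library far from the other 3 by Dixon's criterion, and chance gives about 1 in 20. Ctss had 2903 FPKM in Atg5 WT mouse 1, against 2014 in the nearest library of that group. Atg5 had 6.73 FPKM in the same library, against 3.93 in the nearest.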

How the results depend on the processing

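None of the 10 genes passed the threshold under any of 16 alternatives, and no gene of the 6 surrounding lists did either. Ctsa, Ctsb, Ctsh, Ctsk, Ctsz and Ifi30 kept the sign of their difference under all 16. Ctsc lay between -0.030 and 0.20, Ctsd between -0.077 and 0.024, Ctsl between -0.068 and 0.13 and Ctss between -0.19 and 0.020 when single libraries were left out, so their signs turned. Ctsd also turned with TPM (0.0063) and without both mouse 1 libraries (0.0026). The cause was not tested. Ctsk lay between 0.31 and 1.30. Over all genes, 1 passed with median-of-ratios scaling, with the replicate block and without both mouse 1 libraries, Atg5 in each case, and 8 passed with voom and the block, while leaving out single libraries gave 0 to 1. Genes with an unadjusted p under 0.05 numbered 223 in the main test, 540 with no filter on low values, 618 without both mouse 1 libraries, 971 with the block and 1118 with voom and the block, and 109 to 833 without single libraries. The spread between 4 mice, with standard errors of 0.09 to 0.16 on the log2 scale outside Ctsk, limits these comparisons, and at least 7633 fragments lay behind each value outside Ctsk.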

Other observations

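Proteases and inhibitors known from other cell types differed widely in level. Ctsg, the granule protease of neutrophils, was listed at 0 in all libraries but KO-labelled mouse 1, where it had 0.039 FPKM. Ctsw, a cathepsin of cytotoxic lymphocytes, ranged from 0.20 to 0.90 FPKM. Ctse, an aspartic cathepsin of epithelium and immune cells, ranged from 2.43 to 4.13 FPKM and Ctso from 7.81 to 11.7. The stefin A genes Stfa1, Stfa2, Stfa2l1 and Stfa3, which encode intracellular cystatins, were each at most 0.48 FPKM, and BC100530 was at 0 in every library. Napsa, an aspartic protease of lung and kidney epithelium also found in leukocytes, ranged from 38.1 to 69.3 FPKM in Atg5 WT and from 34.9 to 66.5 in the KO-labelled libraries, with the mouse 1 library lowest in both groups.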
